A study of Mus musculus with 15 samples.

Results

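The genes described here are 10 outputs of the RAS-ERK signalling cascade in mouse neural stem and progenitor cells, namely the dual specificity phosphatases Dusp4 and Dusp6, the Sprouty genes Spry1, Spry2 and Spry4, the Sprouty-related genes Spred1 and Spred2, and the ETS transcription factor genes Etv1, Etv4 and Etv5. They were taken by gene symbol and are 10 of the 26263 named genes in the count files, and all 10 passed the filter on low counts. RNA was sequenced from 15 libraries of cells of the E12.5 dorsal telencephalon, grown as free-floating neurospheres with EGF (20 ng/ml) and FGF (10 ng/ml). There were 4 libraries of Kat6b KO cells and 3 of wild-type cells, all on the C57Bl/6 background, and 6 libraries of cells overexpressing Kat6b from a transgene (Kat6b Tg) and 2 of wild-type cells, all on a mixed FvB/BalbC background. Kat6b encodes a histone acetyltransferase. The transgenic mice could not be kept on an inbred background, per the series design, so the KO and Tg cells have separate wild-type controls. Neither the promoter of the transgene nor the deleted part of the KO allele is given in the sources used here.

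EGF and FGF bind receptor tyrosine kinases, which switch on RAS and then a chain of kinases that ends with ERK. Active ERK enters the nucleus and turns on genes that include its own brakes. Dusp6 encodes a cytoplasmic phosphatase that removes the activating phosphates from ERK, and Dusp4 encodes a nuclear one. Sprouty and Spred proteins act further up, on the steps between receptor and RAF, and Spred proteins do so with the RAS GTPase activator neurofibromin. Etv1, Etv4 and Etv5 form the PEA3 group of ETS factors, and their transcription is a common readout of FGF signalling in the embryo. The RNA of these genes is therefore widely read as an output of the pathway, although RNA levels do not measure ERK phosphorylation itself.

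Total counts over named genes were 39413502 to 62819028 in Kat6b KO libraries and 18483747 to 31067022 in C57Bl/6 wild types, 12336303 to 41746720 in Kat6b Tg libraries and 19930942 to 21417513 in FvB/BalbC wild types, so every KO library was deeper than every wild type it was compared with. Some libraries of 1 group were nearly alike: with a biological coefficient of variation under 0.05 these were all 3 C57Bl/6 wild types, both FvB/BalbC wild types, KO replicates 2 and 3, and Tg replicate 2 with each of replicates 1 and 3, which were 0.0505 from each other and were joined through replicate 2. Their counts differed by more than sampling noise (chi-square per degree of freedom 2.10 to 11.4), and they entered the fit as separate libraries. That does not show that they are separate cultures, since technical replicates can exceed sampling noise too. By their labels the alike libraries of each group come from different embryos. The 3 C57Bl/6 wild types are of different litters, as are KO replicates 2 and 3, and Tg replicate 3 is of another litter than 1 and 2. Why they are nearly alike all the same was not tested. Nothing else in the labels says whether they are separate cultures, and p-values measure only the spread between libraries, which may be technical. When alike libraries were summed, 3 KO libraries, 1 C57Bl/6 wild type, 4 Tg libraries and 1 FvB/BalbC wild type remained, and results from that fit are given beside the others. The titles of the Tg samples call them knockouts, and the count columns of Tg replicates 5 and 6 carry wild-type headings. The genotype field was followed. On the axis along which libraries varied most over all genes (first principal component), Tg replicates 5 and 6 lay at 3.94 and 4.81. The other Tg libraries lay at 33.85 to 52.53, FvB/BalbC wild types at 50.87 and 51.39, and C57Bl/6 libraries at -52.74 to -26.18. Why Tg replicates 5 and 6 lay apart was not tested. Levels are CPM, counts relative to library size, scaled by TMM factors, and a gene is called when its p, adjusted over all genes tested, is under 0.05. Kat6b itself averaged 63.4 ± 2.22 CPM in KO libraries and 84.2 ± 0.778 CPM in their wild types (SD, n = 4 and 3), a ratio of 0.752 that edgeR did not call (adjusted p = 0.0571) and DESeq2 did (adjusted p = 0.0282). A count over the whole gene does not show which exons are lost. It averaged 243 ± 54.2 CPM in Tg libraries and 53.1 ± 1.80 CPM in their wild types (SD, n = 6 and 2; ratio 4.57, adjusted p = 2.38e-04), and Tg replicate 5 was lowest of the Tg libraries at 140 CPM. All 11 neural stem cell and radial glia markers were measured. Of the dorsal telencephalon markers, Emx1 was at most 0.128 CPM and Eomes at most 0.419 CPM in any library, so these 2 defining markers of the labelled region were nearly absent. Summed microglial, endothelial, mesenchymal and erythroid markers each stayed at or below 4.67 CPM.

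Scaled by gene length, Spry2 had the highest RNA level of the 10 genes in all 4 groups and Dusp4 the lowest. Spry2 reached 122 CPM per kb in KO cells and 52.2 CPM per kb in C57Bl/6 wild types, 92.4 CPM per kb in Tg cells and 88.8 CPM per kb in FvB/BalbC wild types. Dusp4 reached 4.36 CPM per kb in KO cells and 1.67 CPM per kb in C57Bl/6 wild types, 4.05 CPM per kb in Tg cells and 5.06 CPM per kb in FvB/BalbC wild types. Dusp6 ranked the fourth in KO cells at 66.0 CPM per kb, but the eighth in C57Bl/6 wild types at 12.8 CPM per kb. Over the 15 libraries Dusp6 was also the member that varied most (SD of log2 CPM 0.896), and Etv1 varied least (0.125).

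**Figure D1:**
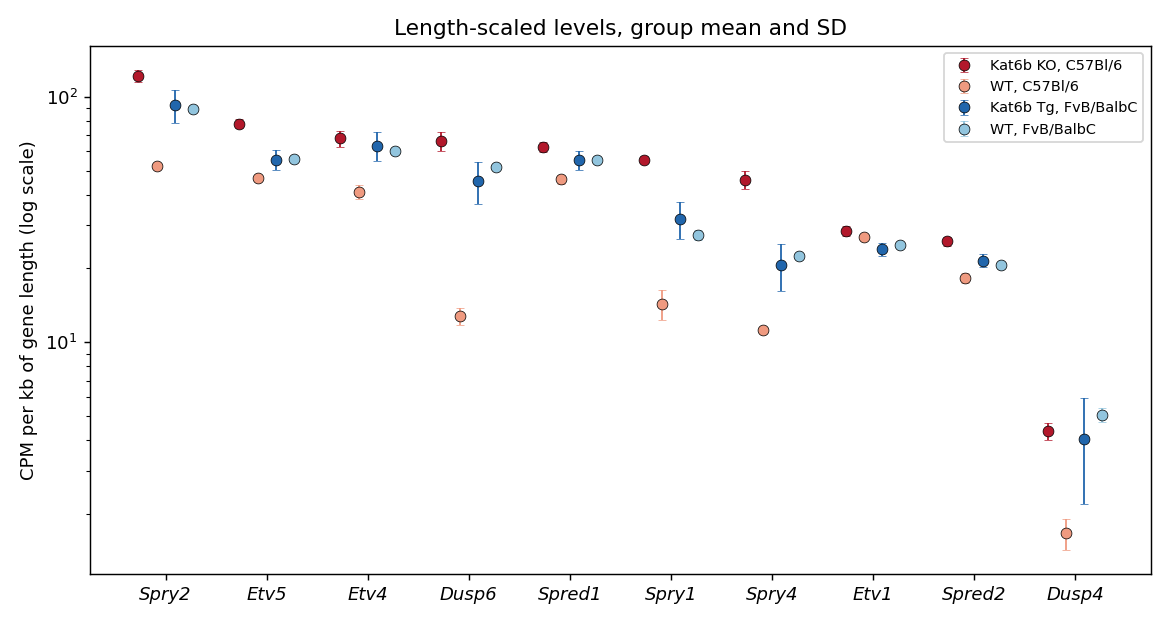
Mean level of each gene in CPM per kb of gene length (log axis), with the SD over libraries as bars, for Kat6b KO and wild-type C57Bl/6 cells and Kat6b Tg and wild-type FvB/BalbC cells. C57Bl/6 wild types lie lowest for every gene but Etv1, and the separation is widest for Dusp6, Spry1 and Spry4.

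The upstream windows of 2 members are shown, Dusp6 because it had the largest difference between KO and wild-type cells, and Spred2 because it was the only member with a match to a motif searched. RefSeq windows (assembly GRCm38.p6) of the 250 bases before the transcript start were matched by symbol for 7 of the 10 members, in 9 windows. They were searched on both strands for the ETS motifs CCGGAAGT and AGGAAGT, which differ in the letters before a common core, the cAMP response element TGACGTCA and the CArG box of serum response factor. Capitals mark the match, which reads ACTTCCT on the printed strand of Spred2 and begins 33 bases before the start.
Dusp6: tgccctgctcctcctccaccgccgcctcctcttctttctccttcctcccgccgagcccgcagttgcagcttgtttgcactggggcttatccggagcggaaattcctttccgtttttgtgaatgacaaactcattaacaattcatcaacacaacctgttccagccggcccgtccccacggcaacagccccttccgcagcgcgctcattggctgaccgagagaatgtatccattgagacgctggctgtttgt
Spred2: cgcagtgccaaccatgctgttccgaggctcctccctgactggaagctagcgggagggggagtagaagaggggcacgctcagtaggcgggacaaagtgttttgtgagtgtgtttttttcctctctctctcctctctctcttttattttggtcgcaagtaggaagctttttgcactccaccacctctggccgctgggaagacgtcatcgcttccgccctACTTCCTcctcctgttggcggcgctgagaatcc
The Dusp6 window is chr10:99262981-99263230 and the Spred2 window chr11:19924192-19924441, both on the plus strand. The motif AGGAAGT occurred in 7.69% of all 32851 windows of this length, CCGGAAGT in 2.88%, the cAMP response element in 1.55% and the CArG box in 1.47%. The match is a description of this window, and the other 8 windows only lack these letters.

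In KO cells 9 of the 10 genes were called higher than in C57Bl/6 wild types and none lower, where 24.8% of all 15261 genes tested were called higher and 20.9% lower (edgeR's quasi-likelihood test, adjusted p under 0.05). With the alike libraries summed, 0 of the 10 were called, and the smallest adjusted p was 0.0667. In each of the 9, the lowest KO library lay above the highest wild-type library, as it did in 29.3% of all genes. The median log2 fold change of the 10 genes was 0.98, against 0.02 over all genes. The comparison addresses the effect of losing this acetyltransferase on RNA levels in these cells.

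Dusp6 (gene ID 67603, chromosome 10, 99263231 to 99267489 in GRCm38) had 193.0, 171, 171 and 203.5 CPM in KO libraries and 37.7, 32.7 and 37.3 CPM in wild-type libraries. The groups were far apart, with a mean of 185 ± 16.2 CPM in KO cells and 35.9 ± 2.81 CPM in wild types (SD, n = 4 and 3), a ratio of 5.15. Its log2 fold change was 2.37 ± 0.17 (SE, adjusted p = 1.66e-06), and it ranked 121 of all genes by the size of the change. Dusp4 (chromosome 8, 34807610 to 34819894), the nuclear phosphatase, was expressed at a low level, with 10.2, 11.7, 10.7 and 9.74 CPM in KO libraries and 3.44, 4.56 and 4.16 CPM in wild-type libraries. Every KO library was above every wild type, and the log2 fold change was 1.37 ± 0.33 (SE, adjusted p = 0.00322).

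The Sprouty genes encode membrane-associated inhibitors that receptor signalling induces, and all 3 rose. Spry1 (chromosome 3, 37639947 to 37644599) had 133, 138, 138 and 143 CPM in KO libraries and 41.5, 32.8 and 32.9 CPM in wild-type libraries, a ratio of means of 3.86 (log2 fold change 1.95 ± 0.15, SE; adjusted p = 1.66e-06). All KO libraries were above all wild types. Exons of Spry1 overlap those of Gm42922 on the other strand over 710 bases in GENCODE M21, and since the use of strand in counting is not given, reads of the 2 genes cannot be told apart there. Spry4 (chromosome 18, 38586247 to 38601347) had 209.8, 202, 197 and 236 CPM in KO libraries and 53.0, 50.3 and 51.7 CPM in wild-type libraries, a ratio of 4.08 (log2 fold change 2.03 ± 0.16, SE; adjusted p = 2.06e-06). Spry2, the most abundant of the family per length, had 275, 245, 245.5 and 250.2 CPM in KO libraries and 110.5, 109 and 107 CPM in wild-type libraries, a ratio of 2.33 (log2 fold change 1.22 ± 0.12, SE; adjusted p = 6.58e-06). Replicate 1 was the highest KO library for Spry2. Spry2 lies on chromosome 14 (105891947 to 105896819), as does Kat6b (21499216 to 21672478).

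Both Spred genes rose, by smaller ratios than the phosphatases and Sprouty genes. Spred1 (chromosome 2, 117121071 to 117182279), whose human counterpart is mutated in Legius syndrome, had 196, 183, 194.5 and 177 CPM in KO libraries and 131, 140.0 and 143 CPM in wild-type libraries, a log2 fold change of 0.44 ± 0.08 (SE, adjusted p = 2.81e-04). Spred2 (chromosome 11, 19924442 to 20024026) had 73.1, 78.3, 73.0 and 71.6 CPM in KO libraries and 55.3, 51.0 and 51.5 CPM in wild-type libraries, a log2 fold change of 0.49 ± 0.06 (SE, adjusted p = 3.63e-05). Neither gene's groups overlapped, at ratios of 1.36 for Spred1 and 1.41 for Spred2.

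Of the 3 ETS factor genes 2 rose. Etv5 (chromosome 16, 22381313 to 22439570) had 281.5, 312, 298 and 297 CPM in KO libraries and 179.8, 176 and 178 CPM in wild-type libraries (log2 fold change 0.74 ± 0.08, SE; adjusted p = 9.59e-06). Etv4 (chromosome 11, 101769747 to 101785310) had 166, 149, 146.5 and 170.4 CPM in KO libraries and 102.5, 91.4 and 93.5 CPM in wild-type libraries (log2 fold change 0.72 ± 0.11, SE; adjusted p = 1.15e-04). Both groups of libraries were separate for each gene, at ratios of 1.67 for Etv5 and 1.65 for Etv4. Etv1 (chromosome 12, 38780082 to 38870483) had 127, 113, 119 and 121 CPM in KO libraries and 116, 111 and 115 CPM in wild-type libraries. These overlapped, and its log2 fold change of 0.07 ± 0.06 (SE) was not called (adjusted p = 0.329).

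**Figure D2:**
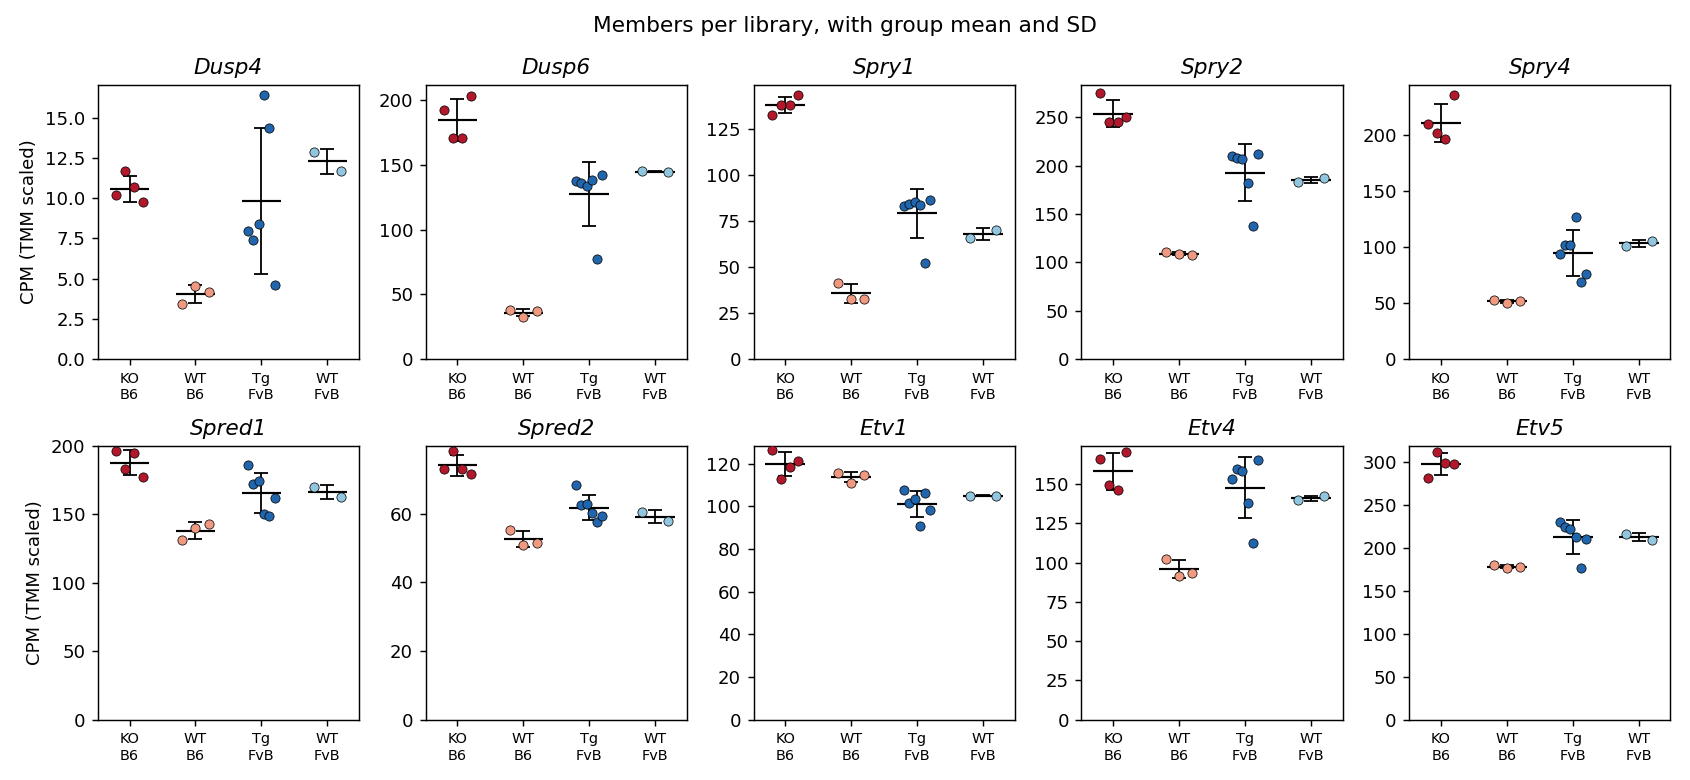
Level of each gene in CPM (scaled by TMM factors) in every library, 1 point a library, with the group mean as a line and the SD as bars. KO libraries of C57Bl/6 lie above their wild types for every gene but Etv1, while Tg and wild-type FvB/BalbC libraries overlap except for Dusp6, whose 6 Tg libraries run from 77.0 to 142 CPM and 2 wild types from 145 to 145.5 CPM.

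Within litters the ratios had the same direction. Litter 843 gave 2 KO libraries and 1 wild type, and so did litter 929, while the remaining C57Bl/6 wild type is labelled with litter 844. The log2 ratio of KO over wild type for Dusp6 was 2.48 in litter 843 and 2.33 in litter 929, that for Spry4 2.03 and 2.06, and that for Etv5 0.76 and 0.74. Etv1 gave 0.11 and 0.06. With 1 wild type a litter these ratios carry no test of their own. The wild types of the 2 litters were nearly alike (biological coefficient of variation 0.0172). So were KO replicate 2 of litter 843 and KO replicate 3 of litter 929 (0.0268). The 2 litters may therefore not be independent. With the alike libraries summed, which leaves 1 wild type, all 10 log2 fold changes stayed positive but none was called. In that fit only 5 genes in all were called.

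Some markers of other states differed too, where 24.8% of all genes were called higher in KO cells and 20.9% lower. Of 7 astrocyte markers 5 were called lower in KO cells and none higher, and their summed level was 533.5 to 699 CPM in KO libraries and 841.5 to 851 CPM in wild types. Of 11 neural stem cell markers 2 were called higher and 6 lower, with sums of 7405 to 9017 CPM in KO libraries and 8971 to 8981 CPM in wild types. Of 8 oligodendrocyte lineage markers 1 was called higher and 3 lower, with sums of 2889 to 3408 CPM in KO libraries and 3108 to 3285 CPM in wild types. Of 7 tested neuron markers 1 was called higher and 2 lower, with sums of 1022 to 1154 CPM in KO libraries and 1127 to 1137 CPM in wild types. The sums overlapped between KO and wild-type libraries for all of these lists but the astrocyte markers. A sum weighs abundant genes most, such as Map2 among neuron markers (mean 1068 CPM in KO cells, 1061 CPM in wild types), and can hide changes of single markers. The 2 neuron markers called lower were Tubb3 (8.79 CPM in KO cells, 25.15 CPM in wild types) and Dcx (13.92 and 38.54 CPM). The 1 called higher was Snap25 (5.46 and 2.70 CPM). The part of these markers, or of depth, in the result was not tested. In bulk RNA, more cells with a gene and more RNA per cell cannot be told apart.

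Of 15 tested genes of a list of other ERK outputs and feedback genes, 8 were called higher and 2 lower in KO cells. Over all genes 24.8% were called higher and 20.9% lower. The median log2 fold change of the list was 0.51, against 0.02 over all genes. Egr1, an immediate early transcription factor, averaged 213 ± 8.49 CPM in KO cells and 62.3 ± 3.77 CPM in wild types (SD, n = 4 and 3; log2 fold change 1.77, adjusted p = 7.04e-05). Ccnd1, the cyclin that drives entry into S phase, averaged 1661 ± 279 CPM in KO cells and 565 ± 6.43 CPM in wild types (log2 fold change 1.56, adjusted p = 3.3e-05). Ier3, an early response gene, averaged 17.4 ± 2.39 CPM in KO cells and 5.17 ± 0.375 CPM in wild types (log2 fold change 1.75, adjusted p = 7.35e-05). The 2 called lower were Epha4 and Il17rd. Epha4, an ephrin receptor gene, averaged 14.6 ± 1.17 CPM in KO cells and 33.1 ± 0.969 CPM in wild types (log2 fold change -1.19, adjusted p = 1.03e-05). Il17rd, which encodes an inhibitor of FGF signalling also known as Sef, averaged 19.6 ± 3.58 CPM in KO cells and 43.1 ± 3.12 CPM in wild types (log2 fold change -1.14, adjusted p = 4.7e-04), and was named for KO cells after its value was seen. It was also called lower in FvB/BalbC wild types, at 17.1 ± 1.08 CPM, against 43.1 ± 3.12 CPM in C57Bl/6 wild types (SD, n = 2 and 3; log2 fold change -1.34, adjusted p = 9.81e-04). Spry3 had no count in any library.

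Of 9 FGF and EGF receptor genes, upstream of ERK, 1 was called higher in KO cells and 3 lower, where 24.8% of all genes were called higher and 20.9% lower. Fgfr1 was the one called higher, with 276 ± 9.91 CPM in KO cells and 191 ± 2.98 CPM in wild types (SD, n = 4 and 3; log2 fold change 0.53, adjusted p = 9.16e-06). Fgfr2 averaged 31.0 ± 5.36 CPM in KO cells and 83.9 ± 2.81 CPM in wild types (log2 fold change -1.43, adjusted p = 4.27e-06). Erbb4, a neuregulin receptor gene, had a log2 fold change of -1.18 (adjusted p = 1.06e-05) and Fgfr3 one of -0.42 (adjusted p = 9.82e-04). Egfr, the receptor of the supplied EGF and named here outside the rule for named genes, averaged 535 ± 62.1 CPM in KO cells and 533 ± 7.85 CPM in wild types, with a log2 fold change of 0.004 ± 0.08 (SE, adjusted p = 0.973). Of 15 tested genes of the ligand list 3 were called higher and 2 lower. The list also holds intracellular FGF homologues, among them Fgf11 and Fgf12. Those called include Hbegf, which encodes an EGF receptor ligand (log2 fold change 1.39, adjusted p = 2.81e-04), and Tgfa, which encodes another (log2 fold change -0.63, adjusted p = 0.0065). The other gene called lower was Fgf11, named outside the rule, whose groups overlapped (adjusted p = 0.0389).

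The adaptors and kinases between receptor and ERK gave 3 higher and 5 lower calls among 20 genes, beside the same 24.8% and 20.9% of all genes, with a median log2 fold change of -0.04. Gab1, a docking protein gene of receptor complexes, averaged 132 ± 6.90 CPM in KO cells and 230.2 ± 3.83 CPM in wild types (SD, n = 4 and 3; log2 fold change -0.80, adjusted p = 2.07e-04). Hras (log2 fold change 0.52, adjusted p = 4.88e-04) and the adaptor gene Shc1 (log2 fold change 0.49, adjusted p = 0.00133) were called higher. Mapk3, which encodes an ERK kinase itself, was called lower (log2 fold change -0.34, adjusted p = 0.0274). Of 8 RAS GTPase activator genes, which encode proteins that switch RAS off, 3 were called higher and none lower, among them Rasa3 (log2 fold change 0.22, adjusted p = 0.00756) and Rasa1 (log2 fold change 0.14, adjusted p = 0.0358).

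**Figure D3:**
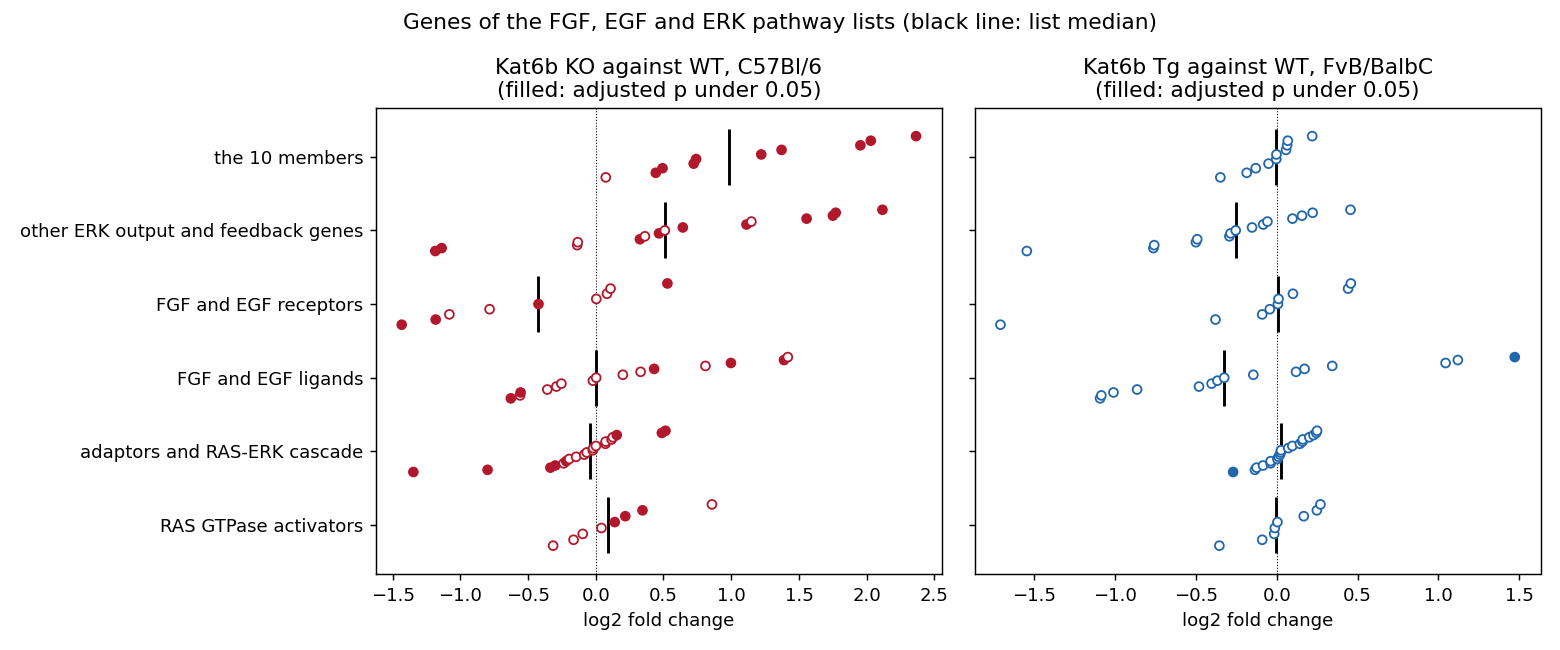
Log2 fold changes of the 10 genes and of 5 lists of other pathway genes in Kat6b KO against wild-type C57Bl/6 cells (left) and Kat6b Tg against wild-type FvB/BalbC cells (right), 1 point a gene, filled where the adjusted p is under 0.05, with the list median as a black line. In the KO comparison the medians are 0.98 for the 10 genes and -0.42 for the receptors, and in the Tg comparison 2 genes outside the 10 are filled, Fgf12 and Map2k1.

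Overexpression of Kat6b gave no call among the 10 genes. None was called higher or lower in Tg cells against FvB/BalbC wild types by edgeR's quasi-likelihood test. That test called 1.85% of all genes, 0.688% higher and 1.17% lower. None of the 10 had an unadjusted p under 0.05 in it, where 2793 of all 15261 genes tested did. DESeq2 called none of the 10 either. Their median log2 fold change was -0.002, against 0.01 over all genes. This comparison asks what a gain of the acetyltransferase does, on the other background.

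Dusp6 had 138, 136, 134, 138.5, 77.0 and 142 CPM in Tg libraries and 145.5 and 145 CPM in wild types. All Tg libraries were below both wild types, as they were in 8.01% of all genes, but the log2 fold change of -0.19 ± 0.17 (SE) was not called (adjusted p = 0.569). Spry1 had 83.3, 84.3, 85.2, 83.5, 52.2 and 86.7 CPM in Tg libraries and 65.9 and 70.2 CPM in wild types. The 5 other Tg libraries were above both wild types and replicate 5 below both, and the log2 fold change was 0.22 ± 0.15 (SE, adjusted p = 0.449). Without Tg replicate 5 it was 0.30 ± 0.08 and was called (adjusted p = 0.0435). Dusp4 spread widely, with 7.93, 7.39, 8.36, 16.4, 14.3 and 4.61 CPM in Tg libraries and 12.9 and 11.7 CPM in wild types. The Tg libraries lay on both sides of the wild types, and the log2 fold change was -0.35 ± 0.33 (SE, adjusted p = 0.591).

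The other 7 genes had log2 fold changes from -0.13 ± 0.16 (SE) for Spry4 to 0.07 ± 0.11 for Etv4, and the Tg and wild-type libraries overlapped in all of them. Spry2 averaged 193 ± 29.3 CPM in Tg cells and 185 ± 3.05 CPM in wild types (SD, n = 6 and 2), Spred1 166 ± 14.4 CPM in Tg cells and 166 ± 5.17 CPM in wild types, and Etv5 212 ± 19.4 CPM in Tg cells and 213 ± 4.43 CPM in wild types. Tg replicate 5, which carries a wild-type column heading and the lowest Kat6b of the Tg libraries, was the lowest Tg library in 8 of the 10 genes, and in 22.7% of all genes tested. Tg replicate 6, with the other wild-type heading, had the highest Kat6b at 289 CPM and was the lowest in 1 of the 10. Within litter 844, with 2 Tg libraries and 2 wild types, the log2 ratio of Tg over wild type was -0.09 for Dusp6, 0.30 for Spry1 and 0.09 for Etv5. The 2 wild types were nearly alike.

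Around the 10 genes, the Tg comparison gave 0 calls among 15 other ERK outputs (median log2 fold change -0.25), 9 receptors and 8 RAS GTPase activators, where 1.85% of all genes were called. Of 15 genes of the ligand list Fgf12, an intracellular FGF homologue, was called higher, at 13.3 ± 4.38 CPM in Tg cells and 4.86 ± 1.00 CPM in wild types (SD, n = 6 and 2; log2 fold change 1.47, adjusted p = 0.0335). Of 20 adaptor and cascade genes Map2k1, which encodes a kinase that activates ERK, was called lower, at 107 ± 5.98 CPM in Tg cells and 128 ± 1.34 CPM in wild types (log2 fold change -0.27, adjusted p = 0.0309). Of 7 astrocyte markers 4 were called lower in Tg cells, with sums of 726.5 to 909.9 CPM in Tg libraries and 1256 to 1266 CPM in wild types. Of 11 neural stem cell markers 1 was called higher and 0 lower (sums of 6940 to 10160 CPM in Tg libraries and 7124 to 7323 CPM in wild types), of 8 oligodendrocyte lineage markers 2 higher and 0 lower (2165 to 3102 CPM in Tg libraries and 2400 to 2423 CPM in wild types), and of 7 tested neuron markers 1 higher and 0 lower (873 to 1107 CPM in Tg libraries and 979 to 1027 CPM in wild types).

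The KO effect and the Tg effect differed by test for 9 of the 10 genes. The difference of the log2 fold changes, KO minus Tg, was called above 0 for all but Etv1, where 19.5% of all genes tested were called above 0. It was 2.55 ± 0.23 (SE) for Dusp6 (adjusted p = 4.33e-05), 2.16 ± 0.22 for Spry4 (adjusted p = 6.07e-05), 1.74 ± 0.20 for Spry1 (adjusted p = 1.17e-04), 1.72 ± 0.45 for Dusp4 (adjusted p = 0.00883) and 1.17 ± 0.17 for Spry2 (adjusted p = 3.25e-04). Among the other genes it was 0.74 ± 0.11 for Etv5, 0.66 ± 0.15 for Etv4, 0.45 ± 0.11 for Spred1 and 0.43 ± 0.09 for Spred2, with adjusted p from 3.61e-04 to 0.00554. For Etv1 it was 0.12 ± 0.09 (adjusted p = 0.277). With litter as a covariate the call of Spred1 was lost (adjusted p = 0.0992), and with the alike libraries summed none was called (adjusted p 0.247 to 0.717). Background differs between the 2 effects along with genotype, and the 2 cannot be told apart here.

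**Figure D4:**
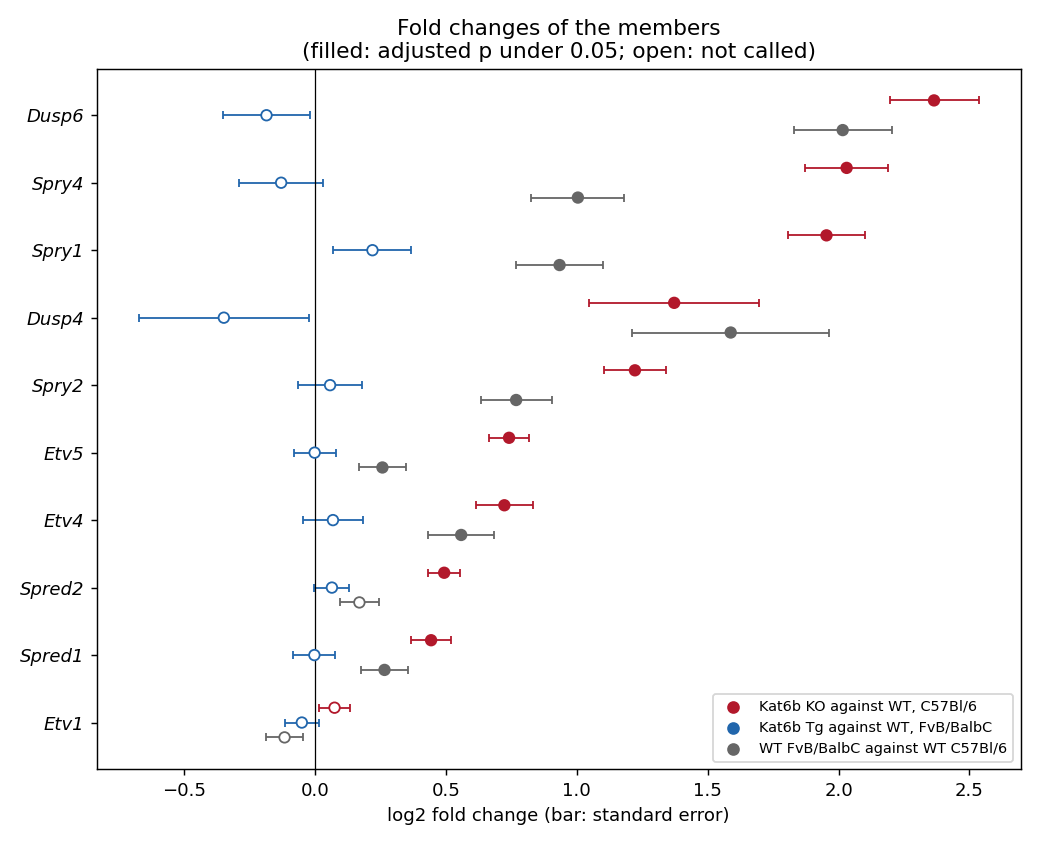
Log2 fold change of each gene (points) with its standard error (bars) for Kat6b KO against wild-type C57Bl/6 cells, Kat6b Tg against wild-type FvB/BalbC cells and wild-type FvB/BalbC against wild-type C57Bl/6 cells, filled where the adjusted p is under 0.05. Dusp6 is at 2.37 in the KO comparison, -0.19 in the Tg comparison and 2.02 between wild types.

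The wild types themselves differed by background. In FvB/BalbC wild types 8 of the 10 genes were called higher than in C57Bl/6 wild types and none lower, where 25.4% of all genes were called higher and 23.5% lower, and the median log2 fold change was 0.66 against 0.02 over all genes. Both FvB/BalbC wild types were above all C57Bl/6 wild types in 9 of the 10 genes, where 40.1% of all genes did so, and below them in 1, Etv1, where 38.2% did so. This comparison uses the same C57Bl/6 wild types as the KO comparison, so the 2 sets of fold changes are not independent. Background, litter and culture cannot be told apart in it, and 1 C57Bl/6 and 1 FvB/BalbC wild type carry the same litter and embryo numbers. Kat6b itself was called lower in FvB/BalbC wild types by edgeR (log2 fold change -0.665 ± 0.207, SE, adjusted p = 0.0157). It averaged 53.1 CPM there, 84.2 CPM in C57Bl/6 wild types and 63.4 CPM in KO cells.

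Dusp6 averaged 145 ± 0.703 CPM in FvB/BalbC and 35.9 ± 2.81 CPM in C57Bl/6 wild types (SD, n = 2 and 3; log2 fold change 2.02 ± 0.19, SE; adjusted p = 9.42e-06). Dusp4 averaged 12.3 ± 0.806 CPM in FvB/BalbC and 4.05 ± 0.571 CPM in C57Bl/6 wild types (log2 fold change 1.59 ± 0.38, SE; adjusted p = 0.0031). The Sprouty genes followed, at log2 fold changes of 1.00 ± 0.18 (SE) for Spry4 (adjusted p = 4.84e-04), 0.93 ± 0.17 for Spry1 (adjusted p = 4.62e-04) and 0.77 ± 0.14 for Spry2 (adjusted p = 4.73e-04). Etv4 was at 0.56 ± 0.13 (SE, adjusted p = 0.00237), Spred1 at 0.27 ± 0.09 (adjusted p = 0.022) and Etv5 at 0.26 ± 0.09 (adjusted p = 0.0267). Spred2 at 0.17 ± 0.07 (adjusted p = 0.0719) and Etv1 at -0.12 ± 0.07 (adjusted p = 0.191) were not called. The call of Etv5 was lost when any 1 of the 5 wild types was left out (adjusted p 0.0506 to 0.143), and that of Spred1 without C57Bl/6 replicate 1 (0.0755) or without FvB/BalbC replicate 1 (0.146) or 2 (0.0729). Calls were also lost for Etv4 and Etv5 with litter as a covariate (adjusted p = 0.0863 for Etv4 and 0.167 for Etv5). They were lost for all 8 genes with the alike libraries summed, which leaves 1 wild type of each background. Of 7 astrocyte markers 5 were called higher in FvB/BalbC wild types, with sums of 1256 to 1266 CPM in FvB/BalbC and 841.5 to 851 CPM in C57Bl/6 wild types. For these marker counts, the shares over all genes were 25.4% higher and 23.5% lower. Of 11 neural stem cell markers 2 were called higher and 6 lower, with sums of 7124 to 7323 CPM in FvB/BalbC and 8971 to 8981 CPM in C57Bl/6 wild types. Of 8 oligodendrocyte lineage markers 1 was called higher and 5 lower, with sums of 2400 to 2423 CPM in FvB/BalbC and 3108 to 3285 CPM in C57Bl/6 wild types. Of 7 tested neuron markers 1 was called higher and 3 lower (979 to 1027 CPM in FvB/BalbC and 1127 to 1137 CPM in C57Bl/6 wild types), and of 6 tested dorsal telencephalon markers 0 higher and 3 lower (180.7 to 182 CPM in FvB/BalbC and 229 to 241 CPM in C57Bl/6 wild types). The part of these markers in the result was not tested.

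Set in order over the 4 groups, mean CPM was highest in KO cells for all genes but Dusp4, which was highest in FvB/BalbC wild types. In 6 of the 10 genes (Dusp6, Spry1, Spry2, Spry4, Spred2 and Etv5) every KO library was above all 11 other libraries, against 5.79% of all genes. For Spred1 and Etv4 the KO libraries overlapped the Tg libraries, and for Etv1 the C57Bl/6 wild types. At the low end, every C57Bl/6 wild type was below all 12 other libraries in 8 of the 10 genes, all but Etv1 and Etv5, against 15.3% of all genes. These 2 counts were chosen after the values were seen.

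Over the 15 libraries the patterns of the 10 genes grouped in part by how far they moved. The distance between 2 genes is the root mean square difference of their centred log2 CPM. Spred1 and Spred2 were closest, at 0.085, followed by Spred2 and Etv5 at 0.117, and Spry1 lay 0.236 from Spry4, 0.280 from Spry2 and 0.341 from Dusp6. Dusp6 and Etv1 were farthest apart at 0.882. Of 10681 candidate genes, those most like Dusp6 were Klf10 (0.300), Adrb1 (0.319), Cdr2 (0.340), Spry1 (0.341) and Egr1 (0.369). Klf10 averaged 173 CPM in KO cells and 48.7 CPM in C57Bl/6 wild types, 154 CPM in Tg cells and 204 CPM in FvB/BalbC wild types. Among those most like Etv5 were B3galt6 (0.075), Akap2 (0.078), Rhobtb2 (0.079) and Fam110a (0.084). Akap2 averaged 133 CPM in KO cells and 78.1 CPM in C57Bl/6 wild types, 97.1 CPM in Tg cells and 87.5 CPM in FvB/BalbC wild types. The distances include differences between groups and backgrounds that the 15 libraries share, and they are given as a description.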

How the data were processed

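The 15 RNA-seq libraries were read as 66 bp paired ends on a NextSeq500 after TruSeq preparation, per the labels. The deposited files hold raw counts per gene and a gene length in bases. Per the submitters' processing notes the authors used bcl2fastq and featureCounts with the build mm10. No version, aligner or use of strand is given in the sources used here. The 917 unnamed entries of each file stayed out. Groups follow the labelled genotype and background.

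All 15 libraries entered 1 model of edgeR 4.0.16 (R 4.3.3), its quasi-likelihood F-test on the deposited counts with TMM scaling and no covariate. filterByExpr with a minimum count of 10 kept 15261 of 26263 named genes, and Benjamini-Hochberg adjustment ran over these, with calls at an adjusted p under 0.05. CPM values are TMM scaled, and CPM per kb divides by the deposited length. Alternatives were RLE size factors, no filter, DESeq2 1.42.0, only the groups compared, a litter covariate, a replicate block, summed alike libraries, no Tg replicates 5 and 6, and each library left out. The code was checked on simulated counts. Depth was 12336303 to 62819028 counts per library.

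The 10 genes and the gene lists were chosen with earlier results of these data known. Named genes are the 10, Kat6b, up to 4 called genes per list and comparison (mean of at least 5 CPM, no overlap of the groups, largest changes), and the 5 genes most like Dusp6 and Etv5 (log2 CPM with a prior count of 2, mean of at least 5 CPM). Only those that the text needs are printed, and 1 gene most like Etv5 is not reported here. Same-numbered libraries were not taken as pairs. The correlation of their deviations across genes ran from -0.024 to 0.081, which does not exclude pairing.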

Additional observations from a re-analysis of the deposited data

Results flagged for a closer look

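Some single libraries stood apart from the rest of their group by Dixon's test at the 95% level. This was so in 4 of 20 tests, of the 10 genes in the 2 groups with 4 or more libraries. The nominal rate is about 1 in 20. It need not hold here, since the tests share libraries and some libraries are nearly alike. The share over all genes is not given, so the count is not read as a trait of the 10 genes. Tg replicate 5 was low for Dusp6 at 77.05 CPM (the other Tg libraries 134 to 142 CPM), for Spry1 at 52.24 CPM (83.3 to 86.7 CPM) and for Etv5 at 175.8 CPM (209.7 to 230.0 CPM). KO replicate 1 was high for Spry2 at 275.3 CPM (245 to 250.2 CPM). The log2 fold change of Tg against wild type without Tg replicate 5 was -0.09 for Dusp6 and 0.04 for Etv5, and these were not called (adjusted p = 0.533 for Dusp6 and 0.727 for Etv5).

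The KO effect on C57Bl/6 and the Tg effect on FvB/BalbC differed, by the test of the difference in the same edgeR model, in 9 of the 10 genes, where 19.5% of all genes were called above 0. With litter as a covariate 8 were called, and with the alike libraries summed 0. The difference of log2 fold changes was 2.551 for Dusp6, 2.161 for Spry4, 1.735 for Spry1, 1.721 for Dusp4, 1.165 for Spry2, 0.743 for Etv5, 0.655 for Etv4, 0.446 for Spred1 and 0.429 for Spred2. The largest adjusted p among them was 0.00883, for Dusp4.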

How the results depend on the processing

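In KO cells 9 of the 10 genes were called higher under every alternative but the summing of alike libraries, which gave 0 (all genes called: 5, against 6982). No direction of a called gene reversed. In Tg cells 0 were called under every alternative but the one without Tg replicate 5, which called Spry1 (0 to 1 over libraries left out). All genes called in the Tg comparison, 283, were 722 by DESeq2, 10 with the litter covariate, 10 with only the groups compared, 0 with libraries summed, 638 without Tg replicates 5 and 6, and 2 to 1763 with single libraries left out (2 without either wild type, 59 without Tg replicate 1, 62 without 2, 88 without 3, 1763 without 4 and 606 without 5). Between wild types, 8 higher and 0 lower calls were 0 higher with libraries summed, 9 higher and 1 lower (Etv1) with only the groups compared, 9 higher without Tg replicates 5 and 6, 6 higher with the litter covariate, and 6 to 7 higher with single libraries left out; all genes called, 7456, were 3903 with the litter covariate and 0 with libraries summed. For the difference of effects, 9 calls were 8 with the litter covariate (Spred1 lost, adjusted p = 0.0992) and 0 with libraries summed; all genes called, 5695, were 2862 and 0, and 3598 to 6760 with single libraries left out (3598 without FvB/BalbC wild type 1, 3656 without 2). The summed fits hold fewer libraries, and the cause of these changes was not tested.

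The replicate block left every count of the 10 genes as it was, at 9 for KO, 0 for Tg, 8 between wild types and 9 for the difference, with 7587, 333, 8076 and 5703 genes called in all. Same-numbered libraries deviated together hardly at all (r from -0.024 to 0.081). The wild types of each background were nearly alike and deviated little from their group means, so this check cannot exclude pairing. Kat6b in KO cells was called lower with RLE size factors (adjusted p = 0.0453), by DESeq2 (0.0282) and in 3 other fits. For the difference of effects the fit with only the groups compared is the same as the one reported. Where leaving a library out left 1 FvB/BalbC wild type, it was assumed to vary like the other groups.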
